A study of Scophthalmus maximus with 8 samples.

Results

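Of the 21263 genes in the turbot count tables, 176 were abundant in embryos at 3 days post fertilization (dpf) and kept at most a small part of that level at any later stage. These embryo genes were chosen by their counts. Their mean at 3 dpf was at least 100 normalized counts and at least 8 times the mean at each of 15, 23 and 37 days post hatching (dph), and no stage mean reached 20000. A normalized count is a gene's read count divided by the library's median-of-ratios size factor, so that libraries of different depth can be compared. The difference between 3 dpf and the later stages therefore chose the genes, and it is described below with no test. The rule treated 15, 23 and 37 dph alike, since each of these means only had to stay under the same ceiling, and the changes among them were tested. The ceiling left out genes with a high mean at any later stage, while all genes tested had no ceiling. Differences from the shares of all genes may thus come partly from the rule.

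RNA was sequenced from 8 turbot (Scophthalmus maximus, a flatfish), with 2 fish at each of 4 stages and no treatment or strain named in the labels. The groups were phylotypic embryos at 3 dpf, taken whole, and fish before metamorphosis (15 dph), at its climax (23 dph) and after it (37 dph), from which the hind part of the body behind the cloaca had been removed. Age and the part of the body sampled therefore cannot be told apart between 3 dpf and the later stages. Counts on genes ranged from 19077018 to 24633023 per library. For replicate 2 of 3 dpf the deposited table is titled as 3 days after hatching, while the sample's labels give 3 dpf. The title of the replicate 1 table carries a further digit beside its stage, whose meaning is not stated. The labels were followed. The number of embryo genes, the median fold and the median change between 15 and 37 dph are also given without replicate 2 of 3 dpf. Most other values at 3 dpf rest on both libraries.

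The phylotypic stage is the part of embryonic development in which the body plan common to vertebrates is laid out. Somites form, the neural tube closes and the hox genes mark positions from head to tail, and many regulators used then are turned down once organs have formed. In flatfish, metamorphosis follows weeks later under thyroid hormone, when one eye migrates and the symmetrical larva becomes a bottom-dwelling juvenile. Which of these roles the embryo genes have is not known here. The tables give Ensembl identifiers only and do not pair them with names, and 0 of the identifiers matched the RefSeq gene table of another turbot assembly. No gene name, pathway, cell type marker or sequence is therefore given, and the tissues in the libraries were not checked against markers. In whole-body RNA, fewer cells of a type and less RNA per cell cannot be told apart.

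The embryo genes took up a small part of the RNA even at their highest stage. In the replicates of 3 dpf they held 1.55% and 1.54% of the gene counts, in those of 15 dph 0.0730% and 0.0721%, in those of 23 dph 0.0478% and 0.0530%, and in those of 37 dph 0.0370% and 0.0406%. The ranges of these shares did not overlap between the 4 stages and lay lower at each later stage. For 3 dpf the mean was 1.55% ± 0.012, for 15 dph 0.0726% ± 0.00063, for 23 dph 0.0504% ± 0.0036 and for 37 dph 0.0388% ± 0.0025 (SD, n = 2 each). Setting aside the 20 most abundant genes of the tables kept this order, with 1.65%, 0.0821%, 0.0613% and 0.0490% in the same order of stages. The fall from 23 to 37 dph was less clear in normalized counts. Summed over the embryo genes, these were 12986 and 12701 in the replicates of 15 dph. They were 10517 and 11703 at 23 dph, and 10634 and 9697 at 37 dph. On this scale the ranges of 23 and 37 dph overlapped, while both lay below that of 15 dph.

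Single embryo genes covered a wide range at 3 dpf. Their 3 dpf means ran from 100.4 to 19920 normalized counts with a median of 501, and 63 of the 176 genes reached 1000. In the replicates of 3 dpf the median gene stood at 536 and 449 normalized counts. At 15 dph it stood at 20.9 and 23.9, at 23 dph at 16.9 and 19.1, and at 37 dph at 13.5 and 15.5. The medians of the 6 later libraries were thus close to one another compared with the gap to both 3 dpf libraries. In 176 of 176 genes the lower of the 3 dpf libraries lay above every later library, and in 133 it was at least 8 times the highest of them. The rule that chose the genes makes such gaps likely, so these counts are no separate support. The 10 genes with the highest 3 dpf means supplied 40.0% and 36.1% of the normalized counts of all 176 in the 3 dpf libraries, and between 30.7% and 38.9% in the later libraries.

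**Figure D1:**
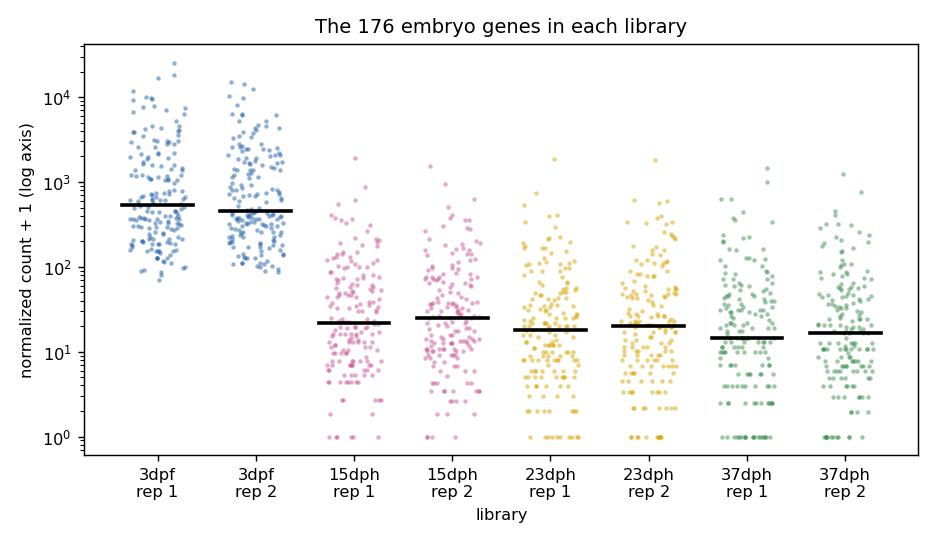
Each point is 1 of the 176 embryo genes in 1 of the 8 libraries, with the normalized count plus 1 on a log axis, the libraries in order of stage on the horizontal axis and the median as a black bar. The medians are 536 and 449 normalized counts at 3 dpf and lie between 13.5 and 23.9 in the 6 later libraries, and the points on the lowest line of the later libraries are genes with 0 counts.

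Expression was rarely extinguished. A level of 3 counts or fewer in each of the 6 later libraries was found for only 10 of the 176 genes (5.68%), where 3 counts is the limit that a count of 0 allows for counting error alone. Of these, 2 had 0 counts in each later library. With 3 dpf means of 364 and 143 normalized counts and the later level held at 3 counts per library, they were at least 98.4-fold and at least 38.6-fold higher at 3 dpf than at any later stage. At the other end, 133 genes kept a mean of at least 10 normalized counts at some later stage, 35 kept at least 100, and 4 kept at least 500. The description of these genes as lost after hatching thus holds for their level relative to 3 dpf, and for few of them as an absence of reads.

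More genes were near the limit at 23 and 37 dph than at 15 dph. Genes with 3 counts or fewer in both libraries of a stage numbered 12 at 15 dph, 20 at 23 dph and 27 at 37 dph. A stage mean of 100 normalized counts or more was kept by 32 genes at 15 dph, 28 at 23 dph and 21 at 37 dph. Libraries of one stage differed in the first count, with 48 genes at 3 counts or fewer in replicate 1 of 37 dph and 29 in replicate 2, whose gene counts were 19194598 and 24633023. The weight of a count also differed, since 3 counts are 2.56 normalized counts in replicate 1 of 15 dph and 4.49 in replicate 1 of 37 dph. After every library was thinned at random to the smallest size factor, an alternative added after seeing the data, 18 genes had 3 counts or fewer in both libraries of 15 dph. In both libraries of 23 dph 33 genes did, the same number as for 37 dph.

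With each later mean held at no less than 3 counts per library, the 3 dpf mean was between 8.01 and 1856 times the highest later mean, with a median of 16.6. The median was 17.0 with replicate 1 alone standing for 3 dpf and 15.5 with replicate 2 alone. Of the 176 genes, 84 lay between 8 and 16 times, 52 between 16 and 32 times, 19 between 32 and 64 times, 10 between 64 and 128 times and 11 at 128 times or more. The 3 genes just inside the limit stood at 8.01, 8.03 and 8.04 times, and the 3 just outside at 7.98, 7.92 and 7.84 times. At the limit on level, the lowest 3 dpf means inside were 100.4 and 104.7 normalized counts and the highest outside were 99.5 and 98.2. Nothing in these values separates the genes on either side of the limits. Another 2 genes met the fold and were left out by the upper limit, with means of 24913 and 64826 normalized counts at 3 dpf.

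**Figure D2:**
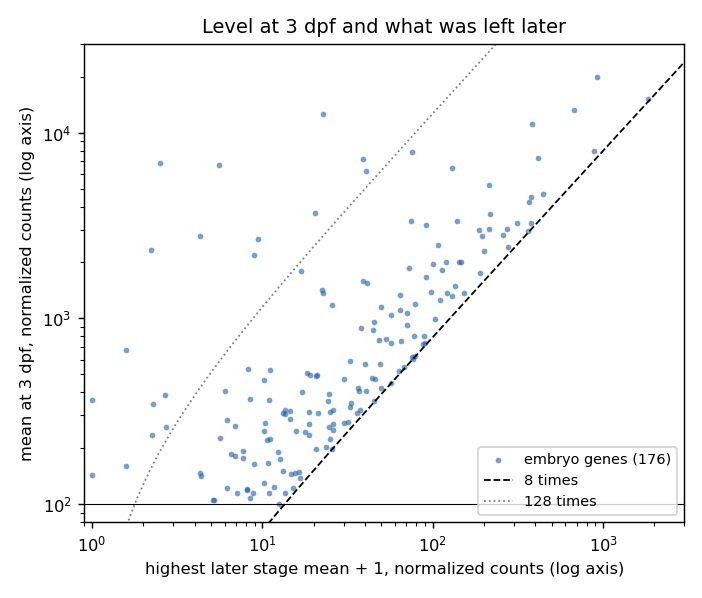
Each point is 1 embryo gene, with the highest of its 3 later stage means plus 1 on the horizontal axis and its 3 dpf mean on the vertical axis, both in normalized counts on log axes. The dashed line marks 8 times and the dotted line 128 times, and 84 of the 176 genes lie between 8 and 16 times.

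Only 4 embryo genes are named, by rule, since the identifiers carry no function. The most abundant was ENSSMAG00000011728. Its normalized counts were 25441 and 14400 at 3 dpf, 872 and 955 at 15 dph, 411 and 595 at 23 dph, and 120 and 107 at 37 dph. The level was lower at each later stage and the libraries of different stages did not overlap. The rule did not use the order of the later stages. At 37 dph against 15 dph the gene fell by 3.04 on the log2 scale (SE 0.31, Benjamini-Hochberg adjusted p = 6.7e-05 over 18987 genes by the quasi-likelihood test of edgeR). It also fell by 2.17 at 37 dph against 23 dph (SE 0.30, edgeR adjusted p = 0.00093), while the log2 difference of -0.87 at 23 dph against 15 dph did not pass (SE 0.27, edgeR adjusted p = 0.13). Each of 15 alternative fits kept the call at 37 dph against 15 dph, with adjusted p between 1.3e-24 in DESeq2 and 0.00093 in edgeR.

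The gene with the largest fold over its highest later stage was ENSSMAG00000010389. It had 7492 and 8036 counts at 3 dpf, 1 and 2 counts at 15 dph, 1 and 0 at 23 dph, and 2 and 0 at 37 dph. It was thus among the 10 most abundant embryo genes and close to absent from every later library. Scaled by the size factors, the counts at 3 dpf were 5402 times those at 15 dph, with an exact interval at 95% confidence from 1848 to 26198. They were 5770 times those at 37 dph, with an interval from 1597 to 47651. Both intervals cover counting error only and are no test of the contrast that chose the gene. Its counts are too low for a comparison among the later stages.

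Among the embryo genes called higher at 37 dph over 15 dph, the largest fold changes were those of ENSSMAG00000011862 and ENSSMAG00000021035. ENSSMAG00000011862 had normalized counts of 2569 and 1366 at 3 dpf, 37.5 and 12.4 at 15 dph, 18.9 and 44.0 at 23 dph, and 126 and 72.8 at 37 dph. Both libraries of 37 dph lay above the 4 libraries of 15 and 23 dph, which overlapped. The log2 fold change at 37 dph over 15 dph was 1.94 (SE 0.54, edgeR adjusted p = 0.016). ENSSMAG00000021035 had 7919 and 4557 at 3 dpf, 11.9 and 7.42 at 15 dph, 4.96 and 10.4 at 23 dph, and 53.9 and 25.2 at 37 dph. Its 37 dph libraries again lay above the other later libraries, and its log2 fold change at 37 dph over 15 dph was 1.93 (SE 0.53, edgeR adjusted p = 0.015). Both rises were small beside the 3 dpf level, and the call of each depended on single libraries. With each replicate left out, the log2 fold change stayed between 1.35 and 2.94 for ENSSMAG00000011862. For ENSSMAG00000021035 it stayed between 1.37 and 2.42. Without replicate 2 of 15 dph the adjusted p in edgeR was 0.11 for ENSSMAG00000011862 and 0.091 for ENSSMAG00000021035, and without replicate 1 of 37 dph it was 0.094 and 0.11, in the same order. Each gene passed in 13 of 15 alternative fits.

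**Figure D3:**
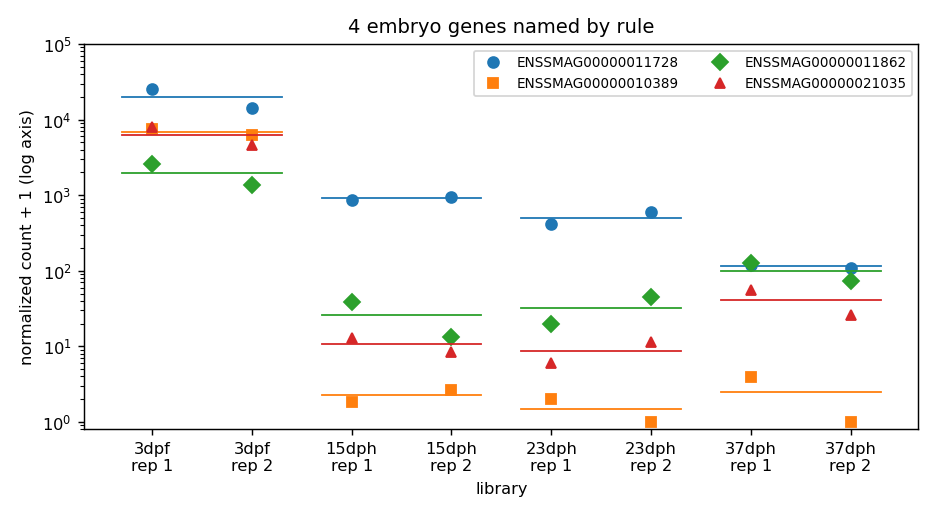
Normalized counts plus 1 of the 4 named embryo genes on a log axis, 1 point per library in order of stage, with each stage mean as a line. ENSSMAG00000011728 falls to 120 and 107 normalized counts at 37 dph, ENSSMAG00000010389 lies at 2 counts or fewer in each later library, and the 2 genes called higher at 37 dph over 15 dph lie far below their 3 dpf level.

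Among the later stages more embryo genes were called lower than higher, and most passed no test. At 37 dph against 15 dph, 43 of the 176 genes were called lower and 14 higher by edgeR, whose calls needed an adjusted p under 0.05 and a log2 difference of 1 or more in either direction. That is 24.4% lower and 7.95% higher, against a background of 8.33% lower and 13.4% higher among all 18987 genes tested. The share called lower was thus above the background and the share called higher below it. How much of this comes from the ceiling of the rule, which the background lacks, was not tested. In each of the 43 and the 14 genes the libraries of the stages did not overlap, which the call itself makes likely and which is no further support. The median log2 fold change was -0.70 over the embryo genes and -0.04 over all genes tested. With levels held at no less than 3 counts per library, the medians were -0.37 and -0.01.

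These counts depend on how many fish stand for a stage. Without replicate 2 of 15 dph, 26 genes were called lower and 4 higher, or 14.8% and 2.27%, against 6.34% and 11.05% of all genes tested. Without replicate 1 of 37 dph, 28 were lower and 10 higher, or 15.9% and 5.68%, against 6.62% and 11.7%. The median log2 fold change was -0.54 over the embryo genes and -0.03 over all genes tested without replicate 1 of 15 dph. Without replicate 2 of 37 dph these medians were -0.77 and -0.06. Lower calls among the embryo genes outnumbered higher calls in each of these fits. Without replicate 2 of 3 dpf the median log2 fold change was -0.71 over the embryo genes and -0.04 over all genes tested. That fit kept the 176 genes chosen with both 3 dpf libraries. A 3 dpf library enters this comparison mainly through the shared spread, so little change was possible. Of the 176 genes, all passed the filter on low counts, but 44 of them passed only through their level at 3 dpf. In a fit of the 6 later libraries with a filter on those alone, 39 of the remaining 132 genes were called lower and 11 higher, or 29.5% and 8.33%, against 8.63% and 13.6% of all genes in that fit.

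**Figure D4:**
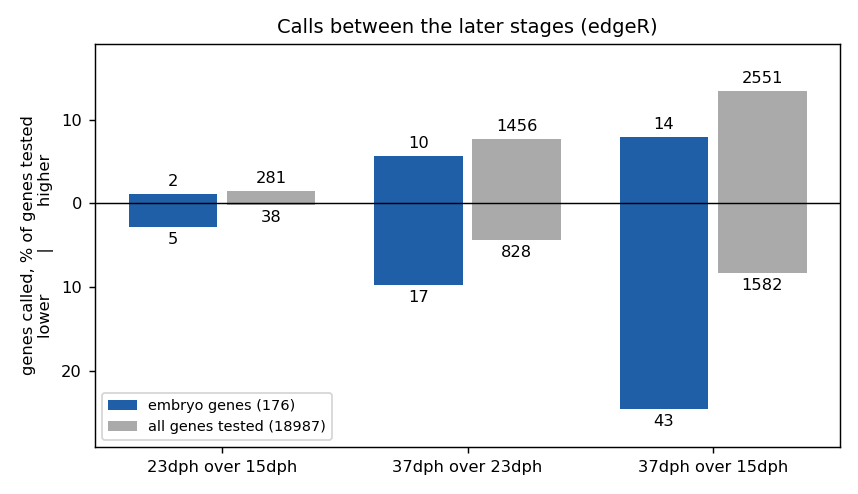
Share of the 176 embryo genes and of all 18987 genes tested that edgeR called higher (up) or lower (down) in each comparison of later stages, in % of the genes tested, with the number of genes at each bar. At 37 dph over 15 dph the embryo genes show 14 higher and 43 lower calls, while all genes tested show 2551 higher and 1582 lower.

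The genes called lower at 37 dph had fallen to a median of 10.3 normalized counts at 37 dph, against 40.3 at 15 dph. Some were then no longer counted. One embryo gene had normalized counts of 353 and 368 at 3 dpf, 20.5 and 26.4 at 15 dph, 6.95 and 5.79 at 23 dph, and 0 in both libraries of 37 dph. With 37 dph held at 3 counts per library it was at least 6.33-fold lower at 37 dph than at 15 dph. Another gene with 0 counts in both libraries of 37 dph was at least 5.87-fold lower than at 15 dph. These genes were singled out after their values were seen. The 14 genes called higher had a median of 49.7 normalized counts at 37 dph, against 17.0 at 15 dph, and their median 3 dpf mean was 1507.

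Fewer genes were called between adjacent stages. At 23 dph against 15 dph, 5 embryo genes were called lower and 2 higher, or 2.84% and 1.14%, with backgrounds of 0.2% lower and 1.48% higher in the same edgeR test. With upper-quartile scaling the split was 5 lower and 1 higher, or 2.84% and 0.57%, against 0.22% and 1.29% of all genes tested. The edgeR calls among the embryo genes did not hold when any 1 library of 15 or 23 dph was left out. Calls among all genes tested also fell in these fits. The median log2 fold change then lay between -0.45 and -0.18 over the embryo genes and between -0.01 and 0.01 over all genes. Lower calls rose in fits lacking replicate 1 or replicate 2 of 3 dpf, among the embryo genes and among all genes. DESeq2's Wald test gave 11 lower calls, or 6.25%, against 0.34% of all genes in that test. The median log2 fold change at 23 dph against 15 dph was -0.27 over the embryo genes and 0.00 over all genes tested.

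At 37 dph against 23 dph, 17 embryo genes were called lower and 10 higher. These are 9.66% and 5.68% of the 176 genes, against backgrounds of 4.36% lower and 7.67% higher. The median was -0.09 over the embryo genes and -0.01 over all genes, and it turned to 0.03 without replicate 2 of 23 dph. With levels held at no less than 3 counts per library, the medians were -0.01 and 0.01, a smaller difference. Without replicate 1 of 23 dph the medians were -0.19 over the embryo genes and -0.01 over all genes. Without replicate 1 of 37 dph they were -0.11 and 0.01. Calls in both directions fell in these fits and in the one without replicate 2 of 23 dph. They fell among the embryo genes and among all genes tested. Of the 43 genes called lower at 37 dph against 15 dph, 16 were also called lower against 23 dph, 5 were already lower at 23 dph against 15 dph, and 3 were called lower in each of the 3 comparisons. No embryo gene was called in opposite directions in different comparisons (0 of 176), and 114 of the 176 were called in none. The same counts were not made over all genes tested, so neither is read as particular to the embryo genes.

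Calls were fewer among the genes with the lowest counts. Of the 43 genes whose highest later mean was under 10 normalized counts, 5 were called lower at 37 dph against 15 dph and 0 higher. Of the 72 genes between 10 and 50 normalized counts, 19 were called lower and 7 higher. Of the 61 genes at 50 or more, 19 were lower and 7 higher. In percent, the embryo genes called lower and higher were 11.6% and 0% under 10 normalized counts, 26.4% and 9.72% from 10 to 50, and 31.1% and 11.5% at 50 or more. The same shares of all genes tested were 4.38% and 0.673%, 9.66% and 11.7%, and 8.24% and 13.9%. From 10 to 50 and at 50 or more, the share called lower was above that of all genes. Under 10 normalized counts the share rests on 5 calls and is not compared. The filter on low counts was passed by 44 embryo genes only through their level at 3 dpf. At least 1 of the 5 calls was such a gene, with at most 6 counts in any later library. How many of the 44 lie under 10 normalized counts was not counted, so no conclusion is drawn for that level.

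The stage at which most expression remained was usually the earliest. The highest later mean was at 15 dph in 98 genes, at 23 dph in 29 and at 37 dph in 47, and 2 genes had 0 counts at each later stage. In percent these are 55.7%, 16.5% and 26.7%, against 36.8%, 21.3% and 41.8% of all genes tested. The 246 genes nearest by rule, described below, had similar shares of 54.5%, 19.1% and 26.4%, so this is not particular to the embryo genes. Stage means fell through both intervals in 70 genes and rose through both in 26, while 29 were highest at 23 dph and 47 lowest there. These shapes were not counted over all genes tested, so they are not read as particular to the embryo genes. Taking libraries one by one, both libraries of 37 dph lay below both of 15 dph in 89 genes (50.6%, background 39.4%) and above them in 40 (22.7%, background 38.2%). At 23 dph both libraries lay below those of 15 dph in 80 genes (45.5%, background 30.8%) and above them in 13 (7.39%, background 33.2%). At 37 dph both lay below those of 23 dph in 57 genes (32.4%, background 33.3%) and above them in 36 (20.5%, background 34.4%), so in this interval the share below was close to the background.

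The group of genes nearest by rule also had more lower than higher calls after hatching. It held 246 genes whose 3 dpf mean reached 100 normalized counts and was 4 to 8 times the highest later mean. At 37 dph against 15 dph, 20.3% of these genes were called lower and 3.25% higher, against the 24.4% and 7.95% of the embryo genes given above. In the same order of directions the shares were 1.22% and 0% at 23 dph against 15 dph, and 6.91% and 3.66% at 37 dph against 23 dph. No test of a difference between the groups was made. The median 3 dpf mean was 501 normalized counts in the embryo genes and 468 in this group. The median of the highest later mean was 25.1 normalized counts in the embryo genes and 88.6 in this group, a difference the rule itself makes. In 33 of the 176 embryo genes, and in 0 of the 246, each later library had 10 counts or fewer. The rule makes this difference likely too, since no gene of this group had a highest later mean under 13.8 normalized counts.

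The median difference between the fish of 3 dpf was larger over the embryo genes than over other abundant genes. The tables of these libraries are the ones titled with different stages. The log2 ratio of replicate 2 over replicate 1 had a median size of 0.45 over the embryo genes, 0.38 over the 246 genes at 4 to 8 times and 0.31 over the 12586 other genes that reached a mean of 100 normalized counts at 3 dpf. Of the embryo genes, 102 were higher in replicate 1 (58.0%), against 51.6% of the other genes, and the median log2 ratio was -0.17 against -0.02. The tails on both sides were fuller. A ratio between -1 and -0.75 was found in 20 embryo genes (11.4%), against 3.63% of the other genes, and a ratio above 1 in 9 embryo genes (5.11%), against 1.16%. Replicate 1 was the higher one in 29 of the 44 most abundant embryo genes and in 24 of the 44 least abundant. The rule used the mean of these libraries, so a gene could meet the limits through 1 high embryo. Between the later fish, where counts are lower, the median size over the embryo genes was 0.29 at 15 dph, 0.34 at 23 dph and 0.54 at 37 dph. With 2 fish per stage these values are a description, and their cause was not tested.

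**Figure D5:**
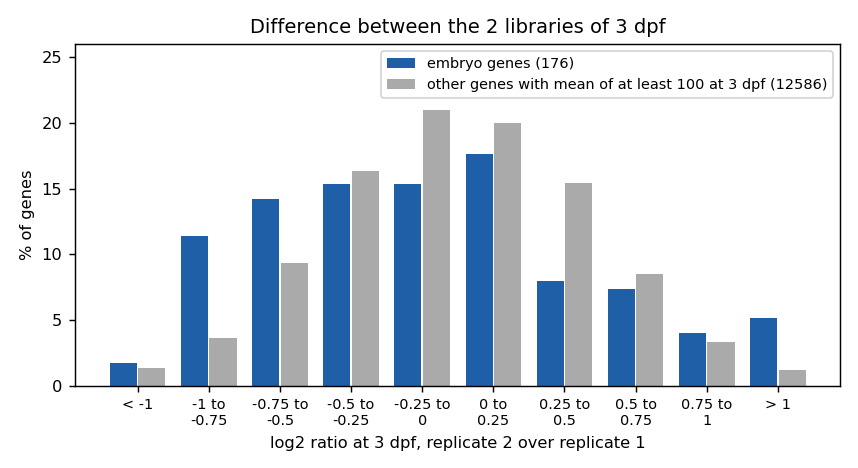
Share of genes, in %, by the log2 ratio of normalized counts at 3 dpf, replicate 2 over replicate 1, for the 176 embryo genes and the 12586 other genes that reached a mean of 100 normalized counts at 3 dpf. The embryo genes have more of their number between -1 and -0.75 (11.4% against 3.63%) and above 1 (5.11% against 1.16%).

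Replicate 1 of 3 dpf was the higher embryo in 12 of the 14 genes called higher at 37 dph over 15 dph, in 22 of the 43 called lower and in 68 of the 119 called neither way. This count was made after the values were seen. It was not made over all genes tested, so it is not read as particular to the embryo genes. Across 16252 genes, deviations of same-numbered libraries at 3 dpf and 37 dph correlated at r = 0.29. Most of the embryo genes also met the limits with a single embryo. The list itself rests on both embryos, so part of this overlap is built in. The lists from single embryos were not compared with each other. With replicate 1 alone standing for 3 dpf, 176 genes met the limits, of which 157 were among the embryo genes, and with replicate 2 alone 178 did, of which 156 were.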

How the data were processed

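RNA from 2 fish at each of 4 stages was made into stranded, poly(A)-selected libraries. The authors used FastQC for read quality, Trimmomatic for adapters, STAR for mapping to ASM1334776v1 and HTSeq-count for the reads on each gene. They deposited raw counts, 1 table per library, with replicates not pooled. The strand setting and annotation release are not given in the sources used here, so overlapping genes and near-identical copies may share reads. The 5 summary entries that name no gene were left out of library totals and tests.

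Counts were divided by median-of-ratios size factors (DESeq2 1.42.0, R 4.3.3). Later stages were compared with edgeR 4.0.16 (limma 3.58.1): filterByExpr kept 18987 genes, TMM normalization, and 1 quasi-likelihood fit of all 8 libraries with 4 stage means and 4 residual degrees of freedom. A call needed a Benjamini-Hochberg adjusted p under 0.05 over all genes and a log2 difference of 1 or more in either direction. The standard error (SE) is the log2 fold change over the root of the F statistic. The procedure was tested on simulated data. Replicates differed by more than sampling noise (chi-square per degree of freedom of at least 7.51), and p-values measure the spread between 2 fish per stage.

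The embryo genes, the tests and the lists were chosen with earlier results of these data known. Named genes are the highest at 3 dpf, the one with the largest fold, and the 2 with the largest called rise at 37 dph over 15 dph and non-overlapping libraries. Alternatives covered scaling, filters, limits of the rule, the libraries fitted, the test, a replicate block and each replicate left out. The planned gene lists need names and were not used.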

Additional observations from a re-analysis of the deposited data

How the results depend on the processing

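Of 236 values recomputed under alternatives, 1 reversed, 4 lost their call, 42 moved beyond the tolerance (1.5 times for a count, otherwise 1 SD) and 189 did none of these. The number of embryo genes lay between 143 and 206 under other scalings, folds and limits, and between 170 and 180 with each replicate left out. With each replicate left out, genes called at 37 dph against 15 dph ranged from 26 to 45 lower and from 4 to 14 higher, at 37 dph against 23 dph from 9 to 21 lower and from 1 to 10 higher, and at 23 dph against 15 dph from 0 to 9 lower and from 0 to 2 higher. A stage left with 1 fish was assumed to vary like the others. At 23 dph against 15 dph, upper-quartile scaling gave 1 higher call and DESeq2's Wald test 11 lower calls, and the cause was not tested. The median log2 fold change at 37 dph against 23 dph ranged from -0.29 to 0.028 with each replicate left out and turned positive without replicate 2 of 23 dph. The share of gene counts, by construction, was 1.65%, 0.0821%, 0.0613% and 0.0490% at 3 dpf, 15 dph, 23 dph and 37 dph without the 20 most abundant genes, and 0.957%, 0.0475%, 0.0317% and 0.0261% without the 10 highest embryo genes. At or under 0 and 10 counts in each later library there were 2 and 33 genes. The replicate numbers name different fish and do not pair them. Across 16252 genes, deviations of same-numbered libraries correlated at r = 0.29 between 3 dpf and 37 dph and at r = -0.18 between 3 dpf and 23 dph. In the other pairs of stages r lay between -0.04 and 0.04. With the replicate block, 45 embryo genes (25.6%) were called lower and 13 (7.39%) higher at 37 dph against 15 dph. Of all genes tested in that fit, 8.63% were lower and 13.4% higher. At 37 dph against 23 dph the calls were 19 lower (10.8%) and 11 higher (6.25%), against 4.50% and 7.63% of all genes. At 23 dph against 15 dph they were 7 lower (3.98%) and 2 higher (1.14%), against 0.23% and 1.78%.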
